A study of Arabidopsis thaliana with 6 samples.

Results

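Roots of wild-type Arabidopsis thaliana (ecotype Col-0) from seedlings on phosphate-deficient medium were compared with roots from seedlings on phosphate-sufficient medium. All seedlings were 8 days old, and each condition had 2 libraries of polyadenylated RNA (replicates 1 and 2 sufficient, replicates 3 and 4 deficient). A nuclear gene entered the comparison when 2 or more of these 4 libraries had it at 1 RPKM or above, which held for 11250 of the 33323 nuclear genes in a table of 33602. RPKM is a read count scaled to the length of the gene's exons and to the size of the library. The sources used here give neither the phosphate levels of the media nor the days of starvation. The series also holds roots of the phl2 mutant (a MYB-type factor related to PHR1) on deficient medium, which are not compared here.

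Plants take up phosphate as an anion that is scarce in most soils. When it runs short, MYB factors of the PHR1 family bind a short palindromic element, P1BS, near the start of target genes and raise uptake, scavenging and lipid exchange. Roots under shortage are also known to grow longer and denser hairs, to rebuild their walls, and to change their use of sulphur, iron and nitrogen. The results below follow those other functions, and the classical phosphate genes are given as a summary.

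Between 20473 and 21742 nuclear genes per library were above 0. Deposited values were higher in deficiency for most genes, with a median log2 difference of 0.33 over the tested genes. This shift was removed by dividing each library by a factor (0.93 and 0.77 for the sufficient libraries, 1.26 and 1.14 for the deficient ones). Levels below are deposited RPKM per library, and log2 changes are rescaled differences of log2(RPKM + 1), deficient minus sufficient, ± SE from limma, which understate the change of low genes. By exonic length, the reads behind the table made up only a small part of the totals to which RPKM was scaled. This part was 7.04% and 6.17% in the sufficient and 9.07% and 8.39% in the deficient libraries. It thus differed by condition, in the same order as the factors, and the cause was not tested. The sources used here do not give the strand that was counted. The share of a gene's exons opposite to exons of another gene is therefore given where it is above 5%. Markers of root tissues were present: summed levels of 12 root hair markers were 18.9 and 14.5 RPKM in the sufficient and 59.8 and 51.9 in the deficient libraries, and those of 6 endodermis markers lay between 9.3 and 10.3 in all 4 (2 of the 3 tested were called lower after rescaling, median -0.49, and 0 as deposited, median -0.17). Root cap and meristem markers summed to 0.8 to 2.4 RPKM, and 0 markers of any tissue were listed at 0 in all 4 libraries.

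After rescaling, 2512 of 11250 genes, or 22.3%, were called at a limma p below 0.05 adjusted over all tested genes (Benjamini-Hochberg). Of these, 1034 were higher in deficiency (9.19%) and 1478 lower (13.1%), so that 41.2% of calls were higher. As deposited, 3595 were higher and 552 lower (86.7% higher), and with the upper quartile as the scale 1349 and 1242 (52.1%). Both counts fell when either deficient library was left out and rose when either sufficient one was. Such a run takes the spread of the condition left with 1 library from the other condition, and the cause of these differences was not tested. Over all 4 leave-outs, 318 higher and 286 lower genes were called each time. Rescaled values of the groups did not overlap in 63.4% of tested genes. Of the tested genes, 1725 reached 1 RPKM in both deficient libraries and in neither sufficient one, and 542 of these were among those called higher. A further 195 reached it only in the sufficient ones, of which 182 were called lower. The remaining 9330 reached 1 RPKM in at least 1 library of each condition, and 492 of these were higher (5.27%) and 1296 lower (13.9%). Counts over a list lean towards the condition through which members entered, so for most lists they are given also for the members at 1 RPKM or more in both conditions. All list counts below are to be read beside these shares over all genes, 9.19% and 13.1%, and 5.27% and 13.9% in both conditions. Rescaled values of the groups did not overlap in any gene named below as called.

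**Figure D1:**
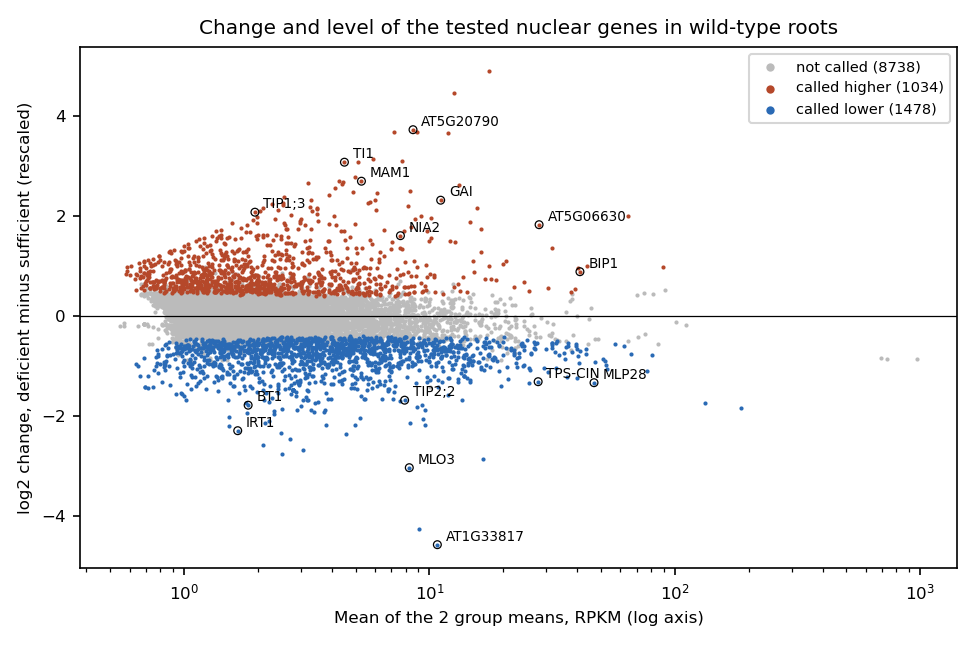
Rescaled log2 change (deficient minus sufficient) against the mean of the group means in RPKM on a log axis, 1 point per tested gene (11250), coloured by call, with 15 genes of this text circled. Called genes lie on both sides, 1034 above and 1478 below the line at 0.

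The largest changes outside the classical phosphate genes included genes of unlike roles. AT5G20790, whose product the reference leaves uncharacterized, was listed at 0.29 and 0 RPKM in the sufficient libraries and at 18.1 and 15.9 in the deficient ones (log2 change 3.73 ± 0.16, adjusted p = 2.9e-05). AT5G53050, of the alpha/beta-hydrolase superfamily, stood at 0.83 and 0.28 with phosphate and 23.6 and 22.8 without (3.66 ± 0.17), with 31.6% of its exonic bases facing exons of another gene. TI1, a trypsin inhibitor, was listed at 0 with phosphate in both libraries and at 10.3 and 7.67 without. All 3 thus went from at most 1 RPKM to between 7.67 and 23.61, and TI2, the next gene after TI1, was at 0 in all 4 libraries. AT2G45135, a RING/U-box protein, was listed at 0 in both sufficient libraries and at 6.57 and 6.29 in the deficient ones. The gene before it on the same strand is SPX3, a classical phosphate gene, at 0 and 0.33 RPKM with phosphate and 13.06 and 10.13 without. SPX3 ends at base 18607853 of chromosome 2 and AT2G45135 starts at base 18608824. Whether reads run on from SPX3 into AT2G45135 was not tested. The other members of the 12 largest rises were 4 genes of glucosinolate synthesis, LSU2, a non-coding RNA (AT1G56242, 64.7% opposite) and a pair of pseudogenes on chromosome 1. These pseudogenes, AT1G67610 and AT1G67645, were listed at 0 in both sufficient libraries and at 24.78 to 36.33 RPKM in the deficient ones. The 2 genes before and the 2 after each of them in the reference had at most 3.59 RPKM in any library.

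GAI, a DELLA repressor of gibberellin responses, was singled out after its values were seen, because it is a regulator with a large rise from a level well above 0. It stood at 2.05 and 2.26 RPKM with phosphate and at 20.2 and 19.98 without (log2 change 2.32 ± 0.14, adjusted p = 9.4e-05), and 0 of its exonic bases lie opposite to another gene. The replicates of a condition lay close together, far from those of the other.

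Among the 12 largest falls, MLO3, a membrane protein of the MLO family, went from 15.1 and 14.9 to 1.38 and 1.74 RPKM (log2 change -3.03 ± 0.15, 10.8% opposite). AIR1, a small gene known for its auxin induction in root cultures, went from 7.07 and 5.94 to 1.3 and 0.93 (41.2% opposite). The kelch-repeat F-box gene AT1G80440 went from 9.13 and 7.44 to 1.56 and 1.76, and AT1G15670, a further kelch-repeat gene with a smaller fall, from 6.21 and 5.46 to 2.27 and 3.1. In each, both deficient libraries were well below both sufficient ones. AT1G33817 and AT1G33813, neighbouring pseudogenes on chromosome 1 with the largest falls of all, were at 16.89 to 21.67 RPKM with phosphate and at 0.05 to 0.26 without. The genes on either side were at 0 in all 4 libraries (AT1G33811 and AT1G33820). The other 7 large falls had products that the reference leaves uncharacterized, or a glycine-rich oleosin-type protein (AT5G56100) or a Kin17-type protein (AT5G51795). AT4G37620 and AT1G45030 among them are annotated as pseudogenes. Of these 7, AT4G26290 (29.8 and 27.2 to 5.68 and 3.63 RPKM) lies wholly (100%) opposite to exons of another gene.

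**Figure D2:**
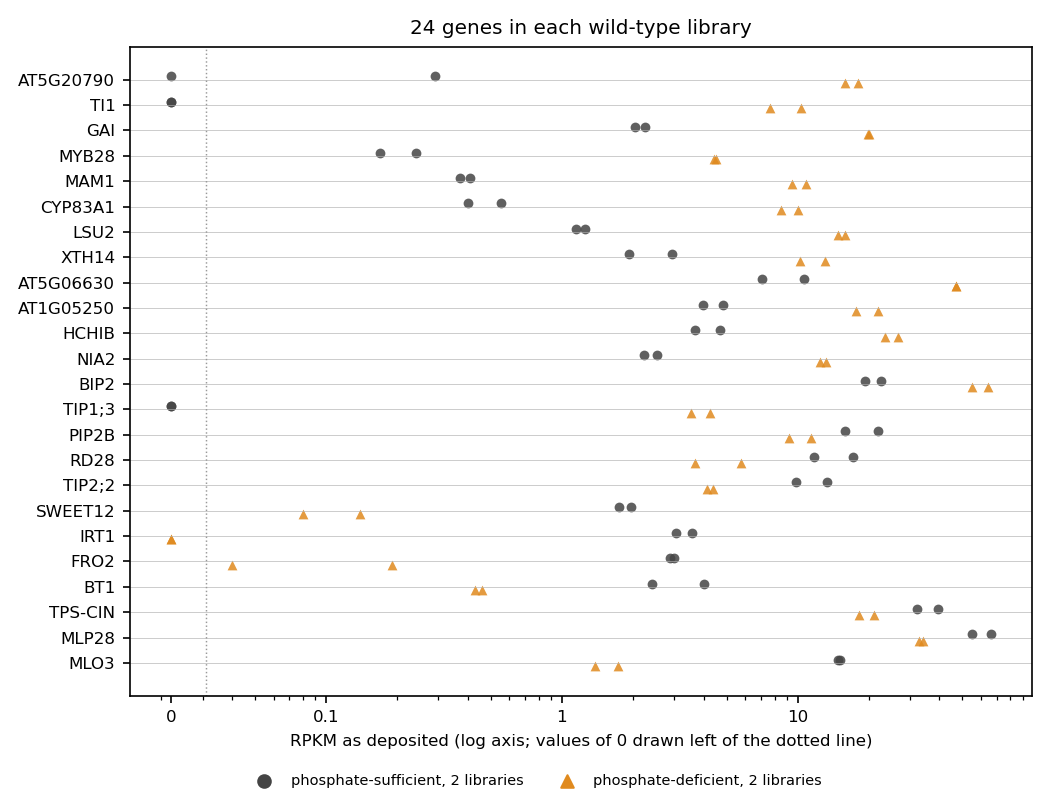
Deposited RPKM of 24 genes in each of the 4 wild-type libraries (log axis, values of 0 drawn left of the dotted line; circles sufficient, triangles deficient, 2 each). In all 24 genes the libraries of a condition lie together and apart from those of the other, for example 2.05 and 2.26 against 20.2 and 19.98 in GAI.

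The classical phosphate genes give the scale for the rest. Of 66 in the table, 48 were tested, of which 37 were higher and 1 (PHO2) lower, with a median log2 change of 1.18 against 0.005 over all tested genes (1.52 and 0.33 as deposited). Of the tested members, 24 passed the filter only through the deficient libraries, and of the 24 in both conditions 14 were higher and 1 lower. PS2, a pyrophosphatase, had 0.18 and 0.17 RPKM with phosphate and 19.5 and 15.8 without (3.69 ± 0.13), and SPX1, a phosphate sensor, had 0.49 and 0.46 with phosphate and 16.8 and 13.3 without (3.11 ± 0.13).

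Glucosinolate genes, which make sulphur-containing defence compounds, divided by branch. Of 22 genes of the aliphatic branch, which starts from methionine, 20 were tested, 19 were higher (9.19% of all tested genes were) and 0 lower, with a median log2 change of 1.94 (2.2 as deposited). 14 of these were tested only through the deficient libraries, and of the remaining 6, 5 were higher. Of 7 tested genes of the indole branch, which starts from tryptophan, 0 were higher and 2 lower, with a median of 0.09 (4 higher and 0 lower, median 0.53, as deposited). This division into branches was made with the values known, and the difference between branches was not tested.

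MYB28, the main activator of the aliphatic branch, was listed at 0.24 and 0.17 RPKM with phosphate and 4.53 and 4.43 without (log2 change 1.94 ± 0.13, adjusted p = 1.7e-04). Its paralogs MYB29 and MYB76 were listed at 0 in all 4 libraries and were not tested. Genes of the chain elongation that comes first were higher too. BCAT4, the first aminotransferase, had 0.23 and 0.29 RPKM with phosphate and 10.6 and 8.88 without (2.79 ± 0.13, 21.2% opposite), and MAM1, the methylthioalkylmalate synthase, had 0.37 and 0.41 with phosphate and 10.9 and 9.46 without (2.7 ± 0.13). IPMI1, a subunit of the isomerase that acts next, had 0.26 and 0.16 with phosphate and 7.28 and 5.46 without (2.33 ± 0.14). Each of these was under 0.5 RPKM in both sufficient libraries and above 5 in both deficient ones. In the core pathway, the P450 gene CYP79F2 went from 0.28 and 0.21 to 8.71 and 8.36 RPKM and CYP83A1 from 0.55 and 0.4 to 10.05 and 8.52. GSTU20, a glutathione transferase of the same pathway, went from 0.71 and 1 to 11.1 and 9.71. In the indole branch, the entry enzyme CYP79B3 had 8.74 and 8.39 with phosphate and 7.73 and 7.07 without (-0.64 ± 0.13; -0.19 as deposited), and its paralog CYP79B2 had 7.33 and 5.69 with phosphate and 10.3 and 9.3 without (0.09 ± 0.12, adjusted p = 0.65). CYP83B1, which acts next, had 8.58 and 7.51 with phosphate and 13.5 and 11.5 without (adjusted p = 0.52). As deposited, CYP79B2 and CYP83B1 were called higher.

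Sulphate assimilation, which supplies reduced sulphur to cysteine, glutathione and glucosinolates, had 16 of 24 tested genes higher and 0 lower (median 0.83; median 1.21 as deposited; 20 higher and 0 lower as deposited, and 9 higher and 0 lower of the 17 in both conditions). All 3 adenylylsulphate reductase genes were higher: APR2 went from 0.77 and 0.5 to 4.9 and 4.21 RPKM (1.46 ± 0.13, 46.4% opposite) and APR3 from 2.73 and 2.74 to 10.04 and 9.3 (1.09 ± 0.13), beside APR1 (2.21 ± 0.15). LSU1 and LSU2, genes named for their response to low sulphur, went from 0.41 and 0.39 to 5.8 and 5.34 (1.94 ± 0.13) and from 1.15 and 1.26 to 15.96 and 14.9 (2.51 ± 0.13). Transporters differed among themselves. SULTR2;1, a low-affinity sulphate transporter of vascular tissue, had 0.35 and 0.33 with phosphate and 4.33 and 3.38 without (1.58 ± 0.14). SULTR1;2, the main sulphate importer of the root surface, had 11.8 and 11.5 RPKM with phosphate and 11.5 and 12.2 without and was not called (-0.45 ± 0.14, adjusted p = 0.058).

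Carbon flow towards organic acids also had higher genes. PPC3, a phosphoenolpyruvate carboxylase of roots, went from 2.63 and 2.26 to 10.6 and 9.65 RPKM (1.28 ± 0.12), and PPCK1, the kinase that activates the enzyme, from 2.08 and 1.82 to 10.9 and 8.49 (1.45 ± 0.13, 22% opposite); both were picked after their values were seen. Of 51 tested genes of glycolysis and fermentation, 11 were higher and 0 lower (median 0.15; 27 higher and 0 lower as deposited, and 10 higher and 0 lower of the 44 in both conditions). They included SUS4, a sucrose synthase (0.38 and 0.14 to 2.06 and 1.6 RPKM), TPI, a triosephosphate isomerase (5.74 and 4.37 to 11.9 and 10.5), and the pyruvate kinase genes AT3G04050 (0.83 and 1.11 to 4.62 and 5.51) and AT5G63680 (3.11 and 2.02 to 9.17 and 7.43). The sucrose synthase and pyruvate kinase genes rose by 0.95, 1.28 and 0.99 on the log2 scale, against 0.58 for the isomerase.

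P1BS was searched as GNATATNC, the W-box of WRKY factors as TTGAC and the G-box as CACGTG, on both strands from 250 bases before to 50 after the annotated start of protein-coding genes (RefSeq TAIR10.1). P1BS and the G-box are palindromes. Among the 10790 tested protein-coding genes, 6.94% held P1BS, and among all 27444 in the reference 6.25% did. It was found for 18 of the 37 classical phosphate genes called higher (48.6%) and for 34 of 255 other genes called higher by at least 2-fold (13.3%). Among the genes called lower, 7.66% held it. Of 31 tested glucosinolate genes 1 held it, and of 24 genes of sulphur metabolism 5. The W-box was in 51.4% of tested genes, 54.6% of those higher and 50.3% of those lower, and the G-box in 8.81%, 10.3% and 8.64%.

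Of the 140 named protein-coding genes with upstream bases read, 12 outside the classical list held a match in the 250 bases before the start. No share over all genes was computed for these 250 bases alone. With the 50 bases after the start included, 6.94% of tested protein-coding genes held a match. The count of 12 is therefore not read as a result about these genes. Of these, 6 were called higher (IPMI1, SULTR2;1, PPC3, PPCK1, AT5G63680 and ChiC), 5 lower (TIP2;2, BT1, ERF104, AXR3 and IRX12) and 1 was not called (SULTR1;2). The bases are shown for the classical gene PS2, for 4 of the higher genes and for 2 of the lower ones, picked after their values were seen, so that the element can be seen in its setting on both sides. Each runs 5′ to 3′ towards the start of the gene, with P1BS in capitals. Coordinates are those of TAIR10.1, and the sequences are from RefSeq. A match describes the letters only.
PS2 (chr1:27466349-27466598, minus strand): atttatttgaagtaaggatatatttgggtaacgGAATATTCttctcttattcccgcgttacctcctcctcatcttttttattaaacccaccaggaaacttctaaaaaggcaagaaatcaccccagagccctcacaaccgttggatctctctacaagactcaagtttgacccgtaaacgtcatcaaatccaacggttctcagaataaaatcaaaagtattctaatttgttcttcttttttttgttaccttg
IPMI1 (chr3:21798304-21798553, minus strand): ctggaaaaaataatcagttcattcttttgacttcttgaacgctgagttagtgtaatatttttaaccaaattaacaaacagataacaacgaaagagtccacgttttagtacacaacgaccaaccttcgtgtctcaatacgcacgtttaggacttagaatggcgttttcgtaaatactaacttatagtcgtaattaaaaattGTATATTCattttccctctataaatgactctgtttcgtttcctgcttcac
SULTR2;1 (chr5:3192767-3193016, plus strand): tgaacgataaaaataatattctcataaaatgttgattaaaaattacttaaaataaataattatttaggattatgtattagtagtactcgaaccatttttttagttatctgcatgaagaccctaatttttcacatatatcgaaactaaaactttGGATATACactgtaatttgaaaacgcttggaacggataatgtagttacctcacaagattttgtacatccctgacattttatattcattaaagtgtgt
PPC3 (chr3:5024934-5025183, plus strand): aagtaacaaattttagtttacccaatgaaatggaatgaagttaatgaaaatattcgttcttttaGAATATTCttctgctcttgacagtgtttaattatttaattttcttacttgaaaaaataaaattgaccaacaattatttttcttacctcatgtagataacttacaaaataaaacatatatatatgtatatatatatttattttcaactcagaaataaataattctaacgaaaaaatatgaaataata
ChiC (chr4:10765796-10766045, minus strand): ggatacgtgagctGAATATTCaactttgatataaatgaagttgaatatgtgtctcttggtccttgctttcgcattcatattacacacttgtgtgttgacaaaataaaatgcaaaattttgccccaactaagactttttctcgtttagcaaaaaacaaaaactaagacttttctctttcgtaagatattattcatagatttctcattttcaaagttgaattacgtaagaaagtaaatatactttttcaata
TIP2;2 (chr4:9698690-9698939, plus strand): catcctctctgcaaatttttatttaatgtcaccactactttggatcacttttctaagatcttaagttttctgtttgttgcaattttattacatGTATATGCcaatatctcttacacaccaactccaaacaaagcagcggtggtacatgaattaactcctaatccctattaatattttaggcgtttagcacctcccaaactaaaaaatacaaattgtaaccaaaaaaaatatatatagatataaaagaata
BT1 (chr5:25335571-25335820, minus strand): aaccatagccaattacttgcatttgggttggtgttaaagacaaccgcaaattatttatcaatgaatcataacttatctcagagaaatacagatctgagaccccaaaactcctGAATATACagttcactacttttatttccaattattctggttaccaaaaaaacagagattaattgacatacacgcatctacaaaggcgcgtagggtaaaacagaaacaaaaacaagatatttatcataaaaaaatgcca
The match begins 217 bases before the start in PS2, 50 in IPMI1, 97 in SULTR2;1, 186 in PPC3, 237 in the chitinase gene ChiC, 157 in the aquaporin gene TIP2;2 and 138 in BT1. PS2, IPMI1, SULTR2;1, PPC3 and ChiC were higher in deficiency, and TIP2;2 and BT1 lower.

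**Figure D3:**
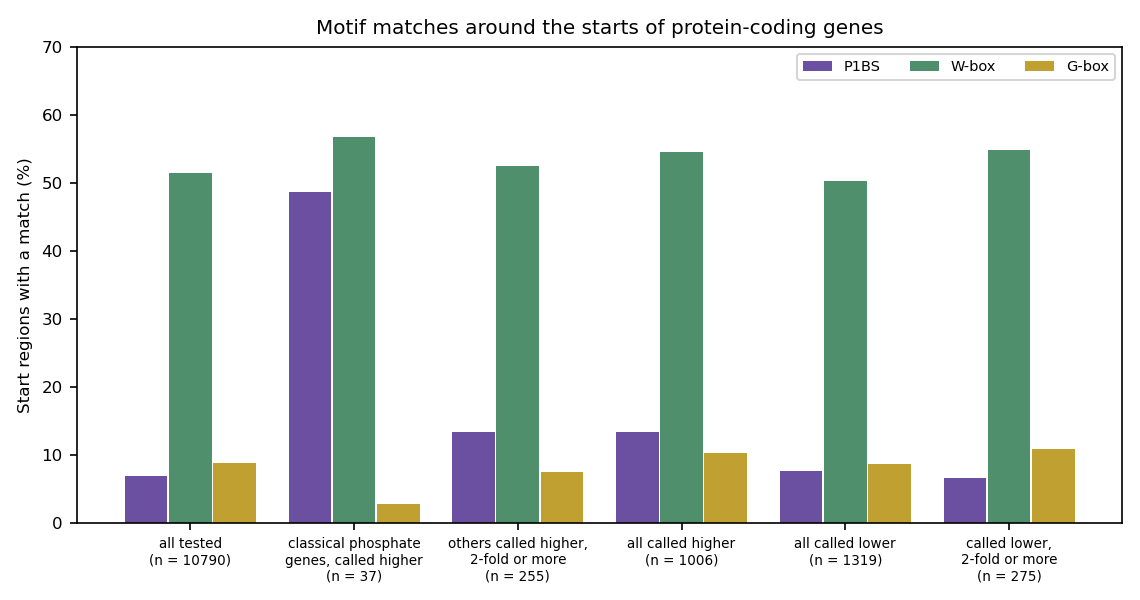
Percent of protein-coding genes with at least 1 match to each motif from 250 bases before to 50 after the start, in 6 sets of genes whose sizes are given under the bars. P1BS stands out in the classical phosphate genes called higher (48.6%), while the W-box is near 50% to 57% in every set.

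Root hair markers and, among wall proteins, extensins and class III peroxidases had more higher than lower genes. Root hair markers were higher in 9 of 11 tested cases and lower in 0 (median 0.81; median 1.15 as deposited; 11 higher and 0 lower as deposited, and 7 higher and 0 lower of the 9 in both conditions). RHS18, a root-hair-specific peroxidase gene, went from 1.09 and 0.71 to 4.94 and 3.98 RPKM (1.2 ± 0.14) and LRX1, a wall protein of hairs, from 2.65 and 2.66 to 10.03 and 9.51 (1.14 ± 0.13). In bulk roots, more hair cells and more RNA per hair cell cannot be told apart. GL2, which marks the hairless cell files of the epidermis, went from 1.82 and 2.02 to 1.34 and 1.11 (-0.7 ± 0.15, 6.2% opposite). It was 1 of 2 tested non-hair markers. The other passed the filter only through the deficient libraries and was not called. The median of the 2 was -0.35, and -0.07 with 0 called as deposited.

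Extensins are hydroxyproline-rich glycoproteins that crosslink the wall. AT5G06630, a proline-rich extensin-like gene, stood at 10.7 and 7.08 RPKM with phosphate and at 47.05 and 47.1 without (1.83 ± 0.15), and its neighbour EXT10 at 7.8 and 5.94 with phosphate and 25.9 and 25.03 without (1.29 ± 0.12, 26.5% opposite). These genes are near-identical in their repeats, and reads may be divided between copies. Over the list of extensins and proline-rich proteins, 16 of 62 were higher and 7 lower (28 higher and 2 lower as deposited, and 16 higher and 6 lower of the 59 in both conditions). Xyloglucan endotransglucosylases, which cut and rejoin the tethers between cellulose fibres, had 10 of 20 higher and 4 lower (10 higher and 1 lower as deposited, and 3 higher and 3 lower of the 12 in both conditions). XTH14 went from 2.93 and 1.93 to 13.1 and 10.3 RPKM (1.48 ± 0.14) and XTR6 from 0.39 and 0.28 to 4.43 and 3.57 (1.63 ± 0.13), whereas XTH21 went from 2.67 and 1.05 to 0.63 and 0.39 (-1.1 ± 0.23). Among members in both conditions, higher and lower ones were thus equal in number. Over all genes in both conditions, 5.27% were higher and 13.9% lower.

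Of 16 expansins, which loosen walls, 5 were higher and 1 lower (9 higher and 0 lower as deposited, and 4 higher and 1 lower of the 13 in both conditions). EXPA7 and EXPA18, both expressed in hairs, went from 2.36 and 1.45 to 5.79 and 4.98 RPKM and from 1.91 and 1.3 to 5.57 and 3.67. CSLD2 and CSLD3, cellulose synthase-like genes needed for hair growth, went from 2.11 and 1.45 to 4.97 and 4.71 (0.71 ± 0.13) and from 2.3 and 1.74 to 4.5 and 4.24 (0.46 ± 0.12). The secondary-wall synthases CESA4 and IRX3 went the other way, from 4.12 and 4.09 to 3.16 and 3.84 (-0.58 ± 0.15) and from 1.73 and 1.57 to 1.21 and 1.12 (-0.58 ± 0.13). Over the list of cellulose synthases, 2 of 17 were higher and 2 lower (8 higher and 0 lower as deposited, and 2 higher and 2 lower of the 15 in both conditions). Members are named because they were called, and a difference between hair and secondary-wall genes was not tested. Of 32 arabinogalactan proteins, 7 were higher and 5 lower (13 higher and 1 lower as deposited, and 4 higher and 4 lower of the 24 in both conditions). AGP2 went from 0.93 and 0.73 to 6.28 and 5.11 and AGP30 from 4.13 and 3.13 to 1.8 and 0.61. Pectin-modifying enzymes had 7 higher and 7 lower of 59 (16 higher and 4 lower as deposited, and 5 higher and 6 lower of the 50 in both conditions). Higher and lower shares were 31.2% and 6.25% of expansins, 21.9% and 15.6% of arabinogalactan proteins and 11.9% and 11.9% of pectin enzymes. They were 11.8% and 11.8% of cellulose synthases, and 9.19% and 13.1% over all tested genes. The pectin and cellulose synthase counts, near those of all genes, are not read as a result.

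Class III peroxidases, which act in the wall with hydrogen peroxide, were higher in 24 of 52 cases and lower in 6 (median 0.28; 32 and 1, median 0.66, as deposited). 12 of them passed only through the deficient libraries, and of the other 40, 13 were higher and 6 lower. AT1G05250 went from 4.82 and 3.96 to 21.97 and 17.8 RPKM (1.5 ± 0.12) and AT2G18150 from 1.02 and 0.56 to 7.1 and 6.91 (1.84 ± 0.14). PRX52 was listed at 0 in both sufficient libraries and at 2.69 and 2.71 in the deficient ones. AT3G01190 and AT5G64120 went the other way, from 9 and 7.98 to 6.05 and 4.66 and from 11.9 and 8.7 to 8.36 and 7.42. Both directions thus occurred among its well expressed members.

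Glutathione transferases, which conjugate glutathione to small molecules, had 10 of 36 higher and 1 lower (median 0.14; 20 higher and 0 lower as deposited, and 5 higher and 0 lower of the 29 in both conditions). These were 27.8% and 2.78%, against 9.19% and 13.1% of all tested genes. GSTF7 went from 1.26 and 1.41 to 9.16 and 7.15 RPKM (1.58 ± 0.14) and GSTU4 from 0.59 and 0.44 to 4.51 and 4.36 (1.55 ± 0.13). GSTF11 (0 and 0.13 to 3.87 and 3.91) lies wholly (100%) opposite to exons of another gene. Cytochromes P450 were lower more often than higher after rescaling, 23 against 14 of 100, a direction that turned as deposited (30 higher and 13 lower as deposited, and 2 higher and 17 lower of the 76 in both conditions). CYP71A12, of indole defence metabolism, went from 0.19 and 0.18 to 2.9 and 2.62 and CYP71A20 from 4.31 and 3.12 to 0.83 and 0.87.

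**Figure D4:**
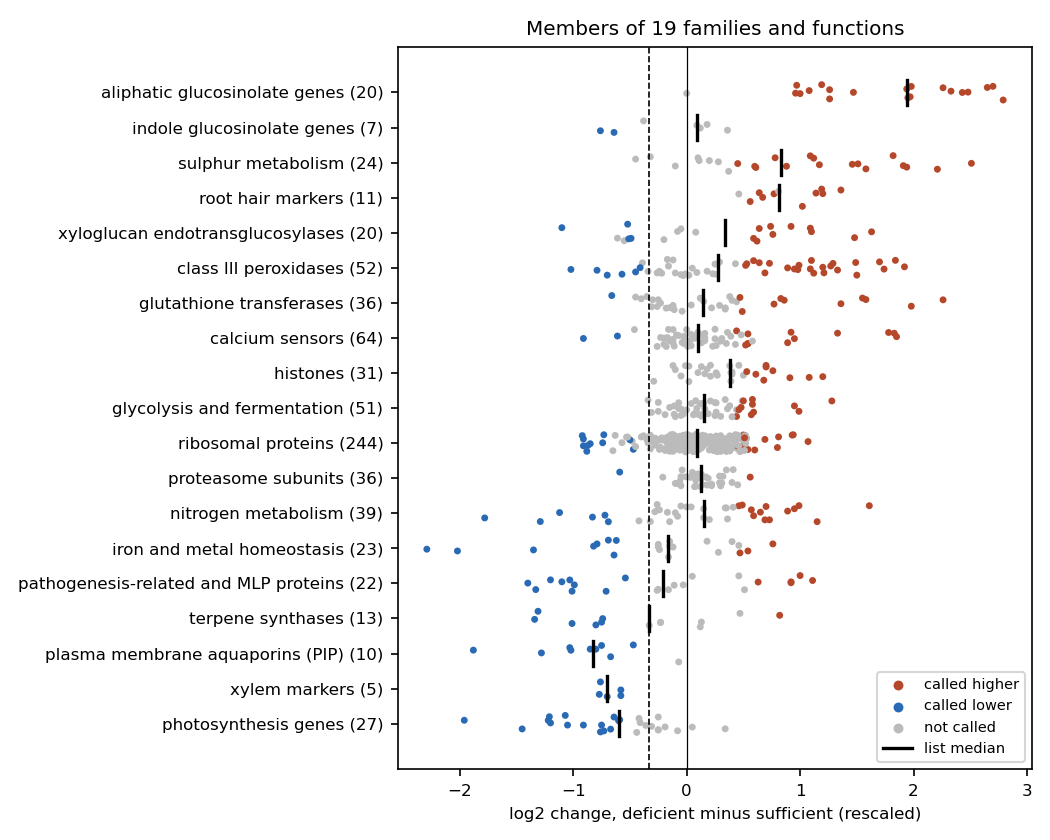
Rescaled log2 change of each tested member of 19 families and functions (1 point per gene, number of genes in parentheses, colour by call), with list medians as vertical bars. The solid line marks no change after rescaling. The dashed line lies to its left by 0.33, the median difference as deposited over all tested genes. The shift of a gene between the scales depends on its level, so this line does not mark no change as deposited for each gene. Aliphatic glucosinolate genes lie furthest right (median 1.94) and plasma membrane aquaporins furthest left (median -0.83).

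Aquaporins, the water channels of plant membranes, were lower in 12 and higher in 3 of 24 cases, a balance that nearly levelled as deposited (6 and 5), and their subfamilies are given apart, with no test between them. Of 10 tested plasma membrane channels (PIP), 9 were lower and 0 higher, with a median of -0.83 (4 lower, 0 higher and a median of -0.4 as deposited). All 10 passed the filter in both conditions. PIP2B went from 21.96 and 15.9 to 11.4 and 9.22 RPKM (-1.28 ± 0.13), its close copy RD28 from 17.1 and 11.8 to 5.74 and 3.68 (-1.88 ± 0.17), and PIP2A from 14.99 and 12.1 to 9.58 and 8.16 (-1.02 ± 0.12). Reads of PIP2B and RD28 may be divided between them. Channels of the vacuole membrane (TIP) went both ways, with 2 higher and 3 lower of 7 (3 and 2 as deposited, and 1 higher and 3 lower of the 6 in both conditions). TIP2;2 went from 13.4 and 9.82 to 4.38 and 4.13 (-1.68 ± 0.12) and TIP2;3 from 8.59 and 6.85 to 2.94 and 2.71 (-1.59 ± 0.12), whereas DELTA-TIP went from 1.39 and 0.87 to 7.23 and 6.18 (1.51 ± 0.14, 14% opposite). TIP1;3 was listed at 0 in both sufficient libraries and at 3.55 and 4.24 in the deficient ones. Of 7 NIP and SIP channels, 2 were higher and 0 lower, with the boron channel NIP5;1 at 1.47 and 0.86 with phosphate and 2.82 and 3.08 without.

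Sugar and amino acid carriers changed one by one. SWEET12, a sucrose exporter of phloem loading, went from 1.75 and 1.97 to 0.08 and 0.14 RPKM (-1.55 ± 0.16), the vacuolar carrier SWEET16 from 3.75 and 3.22 to 1.04 and 0.48 (-1.67 ± 0.16), and the hexose importer STP1 from 7.41 and 6.14 to 3.92 and 3.57 (-1.13 ± 0.12, 12.6% opposite). Of 10 sugar carriers, 3 were lower and 1 higher, and their median of -0.36 became 0.02 as deposited (3 lower, 2 higher). Of the 9 in both conditions, 2 were lower and 1 higher. The nodulin MtN21 family, which holds the amino acid exporters UMAMIT, had 5 higher and 3 lower of 21 (9 higher and 2 lower as deposited, and 2 higher and 2 lower of the 16 in both conditions). Among the lower, UMAMIT17 and its neighbour UMAMIT20 went from 1.91 and 1.66 to 0.07 and 0.06 (-1.56 ± 0.14) and from 5.67 and 4.38 to 1.38 and 1.43 (-1.67 ± 0.13). Amino acid transporters were higher in 7 and lower in 2 of 24 cases (17 higher and 2 lower as deposited, and 1 higher and 0 lower of the 11 in both conditions), with AAP6 at 0.19 and 0.18 RPKM with phosphate and 1.86 and 1.66 without and CAT5 at 1.6 and 1.56 with phosphate and 0.41 and 0.38 without. Among the ABC transporters, 6 of 35 were higher, led by ABCC3 (0.52 and 0.18 to 2.85 and 2.43), and 1 was lower (23 higher and 0 lower as deposited, and 3 higher and 1 lower of the 25 in both conditions).

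Genes of iron and metal homeostasis went both ways. Of 23, 8 were lower and 3 higher (median -0.16), while as deposited the balance turned to 4 lower and 7 higher (median 0.17). Of the 19 in both conditions, 5 were lower and 2 higher. IRT1, the iron importer of the root surface, went from 3.58 and 3.04 RPKM to 0 in both deficient libraries, and FRO2, the reductase that feeds it, from 2.87 and 2.99 to 0.04 and 0.19 (-2.02 ± 0.15). Their regulators FRU (also called FIT) and bHLH39 went from 2.35 and 1.7 to 1.36 and 0.94 (-0.79 ± 0.14) and from 2.52 and 2.85 to 1.42 and 1.85 (-0.82 ± 0.17). NAS1, which makes the metal chelator nicotianamine, went from 6.48 and 6.83 to 3.52 and 2.51 (-1.35 ± 0.15). In each of these genes both deficient libraries were below both sufficient ones. ZIP3 and, from outside the list, ZIP12, both of the zinc transporter family, went from 1.52 and 1.36 to 4.06 and 3.05 and from 0.1 and 0 to 1.77 and 2.32, and FRD3, a MATE carrier that loads citrate for iron transport in the xylem, from 0.15 and 0.24 to 1.33 and 1.54 (0.83 ± 0.15).

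Nitrogen metabolism had 13 higher and 6 lower of 39 genes (20 higher and 3 lower as deposited, and 9 higher and 5 lower of the 32 in both conditions). As shares, 33.3% were higher and 15.4% lower, beside 9.19% and 13.1% of all tested genes. The steps of nitrate reduction were higher together: NIA1, a nitrate reductase, went from 0.32 and 0.3 to 2.4 and 1.73 RPKM (0.99 ± 0.15), NIR1, the nitrite reductase, from 3.88 and 2.89 to 7.8 and 7.44 (0.57 ± 0.12), and UPM1, for the reductase cofactor sirohaem, from 1.76 and 1.35 to 4.81 and 3.53 (0.65 ± 0.14, 7.5% opposite). The second reductase gene, NIA2, had 2.54 and 2.24 RPKM with phosphate and 13.2 and 12.4 without (1.61 ± 0.12). ASN1, an asparagine synthetase known to rise when carbon is low, went from 0.43 and 0.53 to 2.86 and 3.08 (1.15 ± 0.15). The lower genes included regulators. BT1 and BT2, BTB and TAZ domain proteins, went from 4 and 2.42 to 0.43 and 0.46 (-1.78 ± 0.16) and from 6.57 and 5.35 to 2.77 and 2.68 (-1.29 ± 0.12), and LBD39, a nitrate-responsive repressor, from 8.22 and 7.14 to 3.81 and 4.99 (-1.12 ± 0.16). NRT1.5, which moves nitrate into the xylem, stood at 13.7 and 11.4 with phosphate and 11.3 and 9.83 without (-0.69 ± 0.12).

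In the transcription factor families described here, members changed in both directions. Higher and lower shares were 12.9% and 9.68% of WRKY, 20.6% and 14.7% of NAC and 5.41% and 18.9% of AP2/ERF factors. They were 8.57% and 17.1% of homeobox and 7.41% and 14.8% of C2H2 zinc finger factors. Over all tested genes they were 9.19% and 13.1%, and 5.27% and 13.9% among those in both conditions. WRKY factors had 4 higher and 3 lower of 31 (11 higher and 2 lower as deposited, and 3 higher and 1 lower of the 26 in both conditions). WRKY45, known as an activator of a phosphate transporter gene, went from 2.09 and 2.3 to 14.8 and 17.6 RPKM (2.01 ± 0.17), and WRKY22 and WRKY27 from 1.66 and 2.13 to 0.74 and 0.75 and from 1.62 and 1.9 to 0.68 and 0.63. NAC factors had 7 higher and 5 lower of 34 (19 higher and 2 lower as deposited, and 2 higher and 4 lower of the 21 in both conditions). NAC003 went from 1.41 and 1.55 to 6.26 and 6.72 and ANAC026 from 5.02 and 4.9 to 1.26 and 1.47 (-1.68 ± 0.14). AP2/ERF factors had 2 higher, the cytokinin response factor CRF8 (2.57 and 2.29 to 8.45 and 9.77) and ERF2 (0.22 and 0.21 to 1.87 and 2.1), against 7 lower of 37 (12 higher and 2 lower as deposited, and 1 higher and 7 lower of the 29 in both conditions), among them ERF104 (31.3 and 29.5 to 22.8 and 18.3, -1.04 ± 0.14). Homeobox factors had 3 higher and 6 lower of 35 (8 higher and 3 lower as deposited, and 0 higher and 6 lower of the 30 in both conditions), and C2H2 zinc finger factors 2 and 4 of 27 (5 higher and 2 lower as deposited, and 0 higher and 3 lower of the 20 in both conditions). Among the higher members, WOX11, a homeobox factor of adventitious root formation, went from 0.12 and 0.22 to 2.44 and 2.14 (1.27 ± 0.14). RHL41, a stress-responsive zinc finger factor, went from 0.91 and 0.86 to 4.89 and 3.83 (1.17 ± 0.13).

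Of 64 calcium sensors, 12 were higher and 2 lower (28 higher and 1 lower as deposited, and 5 higher and 1 lower of the 51 in both conditions). Shares were 18.8% higher and 3.12% lower, against 9.19% and 13.1% of all tested genes. CML43, a calmodulin-like protein, went from 2.8 and 1.98 to 13.8 and 15.03 RPKM (1.78 ± 0.14), and TCH2, a touch-induced calmodulin-like gene, from 0.42 and 0.26 to 2.86 and 3.12 (1.33 ± 0.14, 20.9% opposite). Of 24 genes for signal peptides, 7 were lower and 3 higher (7 higher and 2 lower as deposited, and 2 higher and 7 lower of the 22 in both conditions). PSK4, a precursor of the growth peptide phytosulfokine, went from 11.04 and 9.7 to 4.6 and 3.18 (-1.66 ± 0.14) and RALF1 from 7.52 and 8.12 to 6.71 and 4.76 (-0.84 ± 0.16), whereas the defence peptide precursor PROPEP4 went from 0.59 and 0.55 to 2.76 and 2.89 (1.0 ± 0.14). Receptor-like kinases, 8 higher and 14 lower of 128, were below the background of all tested genes in both directions after rescaling, and their balance turned as deposited (36 higher and 5 lower as deposited, and 2 higher and 12 lower of the 100 in both conditions).

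Of 10 Aux/IAA repressors of auxin response, 3 were lower and 0 higher (2 higher and 1 lower as deposited, and 0 higher and 3 lower of the 10 in both conditions): SHY2 (4.6 and 3.48 to 2.03 and 2.18 RPKM, 39.6% opposite), AXR3 (6.55 and 6.35 to 5.96 and 4.99) and ATAUX2-11 (2 and 1.8 to 1.28 and 0.94). Jasmonate genes had 5 higher and 1 lower of 14 (9 higher and 0 lower as deposited, and 4 higher and 1 lower of the 11 in both conditions), with the reductase genes OPR1 at 4.25 and 3.02 with phosphate and 10.8 and 9.27 without and OPR2 at 3.73 and 2.76 with phosphate and 8.71 and 7.68 without, and the cyclase gene AOC4 lower (-0.75 ± 0.12). In ethylene synthesis and signalling, 2 of 14 were higher and 1 lower (10 higher and 0 lower as deposited, and 1 higher and 1 lower of the 11 in both conditions). The higher ones were the ACC oxidase gene EFE (3.04 and 2.86 to 8.48 and 6.06) and the receptor gene ERS2 (0.52 and 0.24 to 1.78 and 1.79). Higher and lower shares were 0% and 30% of Aux/IAA, 35.7% and 7.14% of jasmonate and 14.3% and 7.14% of ethylene genes. Over all tested genes they were 9.19% and 13.1%. With so few members called, the ethylene counts are not read as a result.

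Among defence genes, chitinases and glucanases had 4 higher and 1 lower of 11 (6 higher and 0 lower as deposited, and 2 higher and 1 lower of the 8 in both conditions). ChiC, a chitinase, went from 0.55 and 0.81 to 8.15 and 6.84 RPKM (2.0 ± 0.16), and the basic chitinase HCHIB from 3.68 and 4.71 to 26.7 and 23.6 (1.88 ± 0.18, 33.1% opposite). PR4 and the osmotin OSM34 went from 7.23 and 6.93 to 24.1 and 22.3 (1.11 ± 0.13) and from 9.2 and 8.38 to 26.6 and 25.7 (1.0 ± 0.13). The major latex protein genes MLP28 and MLP43 were lower, from 66.2 and 54.8 to 33.95 and 32.6 (-1.33 ± 0.14) and from 13.4 and 13.2 to 8.04 and 7.07 (-1.2 ± 0.13). Over PR and MLP genes together 5 of 22 were higher and 9 lower (7 higher and 7 lower as deposited, and 2 higher and 8 lower of the 18 in both conditions), with the median turning from -0.2 to 0.16 as deposited. Terpene synthases had 6 lower and 1 higher of 13 (2 higher and 4 lower as deposited, and 0 higher and 5 lower of the 10 in both conditions). The cineole synthase pair AT3G25820 and AT3G25830, near-identical neighbours both named TPS-CIN, went from 36.5 and 29.8 to 19.5 and 16.2 and from 39.6 and 32.01 to 21.1 and 18.3. MRN1, the marneral synthase of the root, went from 2.89 and 2.34 to 1.3 and 1.16 (-1.01 ± 0.13). Defensins and thionins had 2 higher and 2 lower of 9 (4 higher and 2 lower as deposited, and 2 higher and 0 lower of the 7 in both conditions). The defensin-like gene AT1G13609 went from 4.54 and 3.83 to 0 in both deficient libraries. Higher and lower shares were 36.4% and 9.09% of chitinases and glucanases and 22.7% and 40.9% of PR and MLP genes. They were 7.69% and 46.2% of terpene synthases, 22.2% and 22.2% of defensins and thionins, and 9.19% and 13.1% over all tested genes.

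Photosynthesis genes, at low levels in these roots, were lower in 15 and higher in 0 of 27 cases (median -0.6; median -0.32 as deposited; 1 higher and 8 lower as deposited, and 0 higher and 11 lower of the 23 in both conditions). PSBO2, of the oxygen-evolving complex, went from 2.05 and 1.77 to 0.32 and 0.15 RPKM (-1.45 ± 0.14) and LIL3:2, of the light-harvesting superfamily, from 1.66 and 1.56 to 0.27 and 0.34 (-1.21 ± 0.14). Summed levels of 7 shoot mesophyll markers were 22.8 and 19.8 RPKM with phosphate and 16.5 and 13.5 without, and the part of any shoot tissue in these libraries was not tested. Xylem markers were lower in 5 of 5 tested cases (median -0.7), with 0 called and a median of -0.3 as deposited. Among them were the xylem peptidase gene XCP1 (6.16 and 6.32 to 4.97 and 4.51) and the laccase gene IRX12 (3.63 and 3.42 to 2.47 and 2.41). Their changes were between -0.58 and -0.77 on the log2 scale.

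Gene lists of the general machinery of the cell had medians close to 0. Of 244 ribosomal protein genes, 14 were higher and 10 lower (median 0.1), of 36 proteasome genes 1 and 1 (median 0.13), and of 56 translation factors 0 and 1 (median 0.06). By these counts they were below the background of 9.19% and 13.1% in both directions. As deposited their medians were 0.48, 0.5 and 0.45, and that of all genes was 0.33. With the pseudocount of 1 the shift between the scales is smaller for low genes, so lists of unlike level cannot be compared by their deposited medians. Histones were higher in 9 of 31 cases and lower in 0 (median 0.38; median 0.77 as deposited; 23 higher and 0 lower as deposited, and 8 higher and 0 lower of the 30 in both conditions), for example AT3G53650 (3.31 and 2.16 to 10.5 and 10.13 RPKM). Heat shock proteins had 9 higher and 4 lower of 56 (23 higher and 2 lower as deposited, and 5 higher and 4 lower of the 50 in both conditions), and among the higher were chaperones of the endoplasmic reticulum. BIP1 and BIP2, near-identical copies, went from 24.5 and 20.4 to 62.9 and 56.5 (0.89 ± 0.14) and from 22.6 and 19.3 to 64.5 and 54.8 (0.97 ± 0.14), and the stress-induced BIP3 from 0.15 and 0.28 to 2.36 and 2.43 (1.25 ± 0.15). BZIP60, a transcription factor of the response to unfolded proteins, went from 1.83 and 1.27 to 3.98 and 3.67 (0.58 ± 0.13).

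Loci outside the protein-coding genes were lower more often than the background. Of 152 tested long non-coding RNAs, 86 were lower and 5 higher (median -0.56), and of 122 tRNA loci 27 were lower and 2 higher. A median of 74.0% of the exons of these long non-coding RNAs lies opposite to exons of another gene. Over all tested genes, 41.5% of the 289 loci with at least 90% of their exons opposite to another gene were lower and 4.15% higher, against 10.7% and 10.6% of the 7646 with no such exon. The part of opposite-strand reads in these values was not tested. In a fit to the 7646 genes alone, with their own scaling, 688 were higher and 923 lower.

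**Figure D5:**
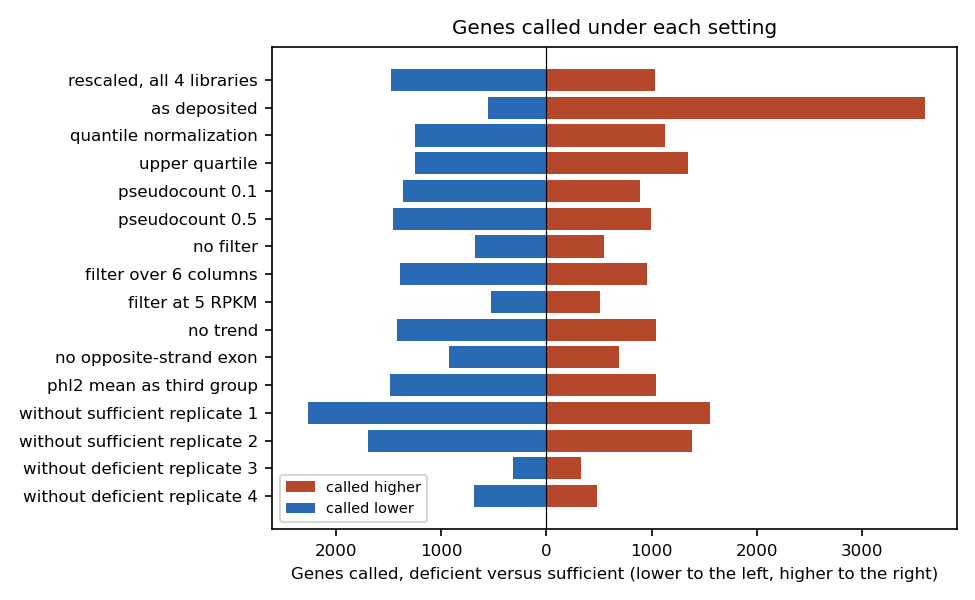
Number of genes called higher (right) and lower (left) in deficiency under the rescaled fit and 15 alternatives. The deposited scale gives 3595 higher and 552 lower, against 1034 and 1478 after rescaling, and leaving out deficient replicate 3 gives 334 and 318.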

How the data were processed

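RPKM values were deposited by the authors in 1 table of 33602 genes. Per the labels' protocols, polyadenylated RNA was made into strand-specific dUTP libraries, and TopHat2, DESeq2 and the build TAIR10 appear, without versions or roles, per the submitters' processing notes. How reads were counted, and on which strand, is not given in the sources used here. Nothing in the labels ties replicates to separate cultures, so the p-values cover only the spread among these libraries, which may be technical. Depth is known only through RPKM, so no counting interval is given.

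Nuclear genes were kept when 2 or more of the 4 wild-type columns reached 1 RPKM. Values were divided by median-of-ratios factors and fitted as log2(value + 1), pseudocount 1, with limma 3.58.1 (R 4.3.3, mean trend), with Benjamini-Hochberg adjustment at 0.05. On simulated data of 11250 genes, 98% of 100 genes changed by 1 on the log2 scale were recovered, and 100% of 100 changed by 2. The simulation drew normal noise at the spread that the fit itself had estimated, with rises and falls in equal number. Far fewer genes were changed than were called here. It therefore checks the calculation and does not give the power in these data.

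Symbols, products, exon overlaps and upstream bases came from RefSeq TAIR10.1. The table holds no coordinates. Named genes were the 12 largest rises and 12 largest falls at 5 RPKM or more outside the classical list, up to 4 called members of each list by smallest adjusted p with up to 2 of the minority direction, and up to 3 classical examples. GAI, IPMI1, CYP79B2, CYP83B1, MYB29, MYB76, TI2, APR2, APR3, SULTR2;1, SULTR1;2, PPC3, PPCK1, NIA1, NIR1, UPM1 and LBD39 fall outside this rule and were picked after their values were seen. Members and lists were chosen with earlier results of these data known.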

Additional observations from a re-analysis of the deposited data

How the results depend on the processing

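Higher and lower calls numbered 1034 and 1478 in the rescaled comparison. They were 3595 and 552 on the deposited scale, 550 and 680 with no filter on low values, 506 and 523 with the filter at 5 RPKM, and 688 and 923 among genes with no opposite-strand exon. Leaving out 1 library gave 334 to 1553 higher and 318 to 2265 lower calls. Another pseudocount, quantile or upper quartile scaling, no mean trend and a filter over 6 columns each left both counts within 1.5 times. So did a run with the mean of the phl2 columns added as 1 column in a group of its own. A group of 1 column adds no spread between libraries, so that run is no check on the calls. A run that leaves 1 library in a condition takes its spread from the other condition. No paired analysis was possible because the conditions share no replicate number.

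Of the 147 genes named from the fit, 144 were called. Of these, 83 kept their call with the filter at 5 RPKM, where 86 of the 147 were tested, and between 108 and 144 kept it when a library was left out. None of the 147 changed direction past the threshold under any of these alternatives. On the deposited scale, 13 calls were lost, all of lower genes: AOC4, AT5G64120, ATAUX2-11, AXR3, CESA4, CYP79B3, FRU, GL2, IRX12, IRX3, NRT1.5, RALF1 and XCP1. Without deficient replicate 3, 36 calls were lost, those 13 among them, with AT5G63680, BIP1, BIP2, BZIP60, CSLD2, CSLD3, EFE, ERS2, EXPA7, EXPA18, MLP28, NIP5;1, NIR1, OPR1, OPR2, SUS4, TPI, UPM1, WRKY22, WRKY27, XTH21, ZIP3 and bHLH39. The cause of these losses was not tested. Many tested genes stand near 1 RPKM, where a few reads decide the value, and the number of reads behind each is not known.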
